A study of Mus musculus with 23 samples.

Results

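Transcripts of 8 amino acid transporter genes were compared between populations of mouse CD4+ T cells: Slc7a5, Slc3a2, Slc1a5, Slc38a1, Slc38a2, Slc7a1, Slc7a6 and Slc43a1. They were chosen by name, and all 15 probe sets annotated to 1 of these genes alone were used, out of 45101 probe sets and 18194 genes in the deposited table. RNA came from cells sorted by surface CD25 (interleukin-2 receptor alpha) and CD49f (integrin alpha 6). The 4 groups were CD25+CD49f+ cells (4 arrays), CD25+CD49f- cells (5 arrays), CD25-CD49f+ cells (7 arrays) and CD25-CD49f- cells (7 arrays). The labels call the arrays biological replicates and the mice female, and give no strain, age, tissue of origin or treatment. Where nothing says that replicates came from separate animals, p-values measure only the spread between these samples.

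Amino acids enter T cells through membrane carriers of several families. Slc7a5 (LAT1) pairs with the glycoprotein Slc3a2 (CD98 heavy chain) and exchanges intracellular glutamine for leucine and other large neutral amino acids, which feed the kinase complex mTORC1. Glutamine and small neutral amino acids enter through Slc1a5 (ASCT2) and the sodium-coupled carriers Slc38a1 and Slc38a2. Slc7a1 (CAT1) carries arginine and lysine, Slc7a6 (y+LAT2) is another partner of Slc3a2 that exchanges cationic for neutral amino acids, and Slc43a1 (LAT3) carries large neutral amino acids without a partner. T cell activation is known to raise several of these carriers.

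The sort was checked on marker transcripts. Foxp3, which specifies regulatory T cells, averaged 9.85 log2 units in CD25+CD49f+ cells, 9.79 in CD25+CD49f- cells, 8.25 in CD25-CD49f+ cells, against 4.74 in CD25-CD49f- cells. Il2ra, which codes CD25, averaged 9.60 in CD25+CD49f+ cells, 9.69 in CD25+CD49f- cells, 6.84 in CD25-CD49f+ cells, against 5.42 in CD25-CD49f- cells. Itga6, which codes CD49f, averaged 9.81 in CD25+CD49f+ cells, 9.64 in CD25+CD49f- cells, 9.36 in CD25-CD49f+ cells, against 9.79 in CD25-CD49f- cells, so its transcript did not follow the CD49f gate within CD25- cells. The 8 measured T cell markers averaged between 10.78 and 10.88 in the 4 groups. Myeloid and dendritic cell markers (14 measured) averaged 6.27 in CD25+CD49f+ cells, 6.50 in CD25+CD49f- cells, 6.56 in CD25-CD49f+ cells, against 7.15 in CD25-CD49f- cells. Single arrays lay between 6.38 and 7.70 in CD25-CD49f- cells and between 5.90 and 6.83 elsewhere.

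The arrays differed in ways that the groups do not name. On 4 arrays (CD25+CD49f- replicate 5, CD25-CD49f+ replicate 1 and CD25-CD49f- replicates 1 and 7) the median correlation with the rest of the group was between 0.967 and 0.982, against at least 0.989 on the others. The difference between the 3' and 5' probe sets of Actb, a sign of RNA quality, averaged 1.50 in CD25+CD49f+ cells, 2.32 in CD25+CD49f- cells, 1.37 in CD25-CD49f+ cells, against 1.67 in CD25-CD49f- cells. It reached 4.83 on CD25+CD49f- replicate 5. Y-linked transcripts were present without Xist on 2 CD25+CD49f+ arrays, 2 CD25+CD49f- arrays, 3 CD25-CD49f+ arrays and 3 CD25-CD49f- arrays, and together with Xist on CD25+CD49f- replicate 5, although the label says female. Each called transporter difference is therefore also given within the arrays without Y-linked transcripts and within the Y-linked arrays without Xist. Transcripts taken as absent on some arrays still read there up to 3.49 (Eif2s3y), 4.07 (Kdm5d), 5.62 (Uty) and 6.50 (Xist). The level read without a transcript thus differs between probe sets. The highest of these, 6.50, is used as a cautious limit, below which a probe set is said not to be told apart from background.

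Slc7a5, Slc1a5 and Slc38a1 each differed between some of the groups, by between 0.25 and 0.55 log2 units. Slc1a5 and Slc38a1 each did so by 1 of 2 probe sets, the other probe set of Slc1a5 lying in the range of absent transcripts. Slc43a1 passed the test in 2 comparisons, but all its values lay below 6.50, where a level cannot be told apart from background. Slc3a2, Slc38a2, Slc7a1 and Slc7a6 were called in no comparison. A gene was called at a limma adjusted p under 0.05, with Benjamini-Hochberg adjustment over 18194 genes, and its level was that of its probe set with the highest mean. CD49f was compared within each CD25 gate. Of the 8 transporters 3 were called between CD25-CD49f+ cells and CD25-CD49f- cells, against 13.4% of all genes, with Slc43a1 among the 3. In CD25+CD49f+ cells against CD25+CD49f- cells 0 of 8 were called, against 1.82% of all genes, and 1 of 8 had an unadjusted limma p under 0.05.

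CD25 was compared within each CD49f gate. Between CD25+CD49f+ cells and CD25-CD49f+ cells 1 of 8 was called, against 5.72% of all genes. Of the 8, 3 were called between CD25+CD49f- cells and CD25-CD49f- cells, against 14% of all genes. The gates that differ in both markers gave 3 of 8 between CD25+CD49f+ cells and CD25-CD49f- cells, against 13.2% of all genes and again with Slc43a1 among them, and 1 of 8 between CD25+CD49f- cells and CD25-CD49f+ cells, against 8.86%. The interaction, which is the CD49f difference in CD25+ cells minus that in CD25- cells, was called for 0 of 8, against 5.31% of all genes, with 2 of 8 at an unadjusted limma p under 0.05.

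The median difference of the 8 transporters was 0.19 between CD25+CD49f- cells and CD25-CD49f- cells, against -0.01 over all genes. It was 0.12 between CD25+CD49f+ cells and CD25-CD49f- cells (0.00 over all genes) and 0.12 between CD25+CD49f- cells and CD25-CD49f+ cells (0.01 over all genes). In the other 3 comparisons of groups the median of the transporters lay between -0.05 and 0.01, and for the interaction it was -0.10, against 0.03 over all genes. Without the 4 arrays of low correlation the median was 0.14 between CD25+CD49f- cells and CD25-CD49f- cells, 0.06 between CD25+CD49f+ cells and CD25-CD49f- cells, 0.00 between CD25+CD49f- cells and CD25-CD49f+ cells and -0.04 for the interaction. The comparisons share groups, so their values are not independent of each other.

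**Figure D1:**
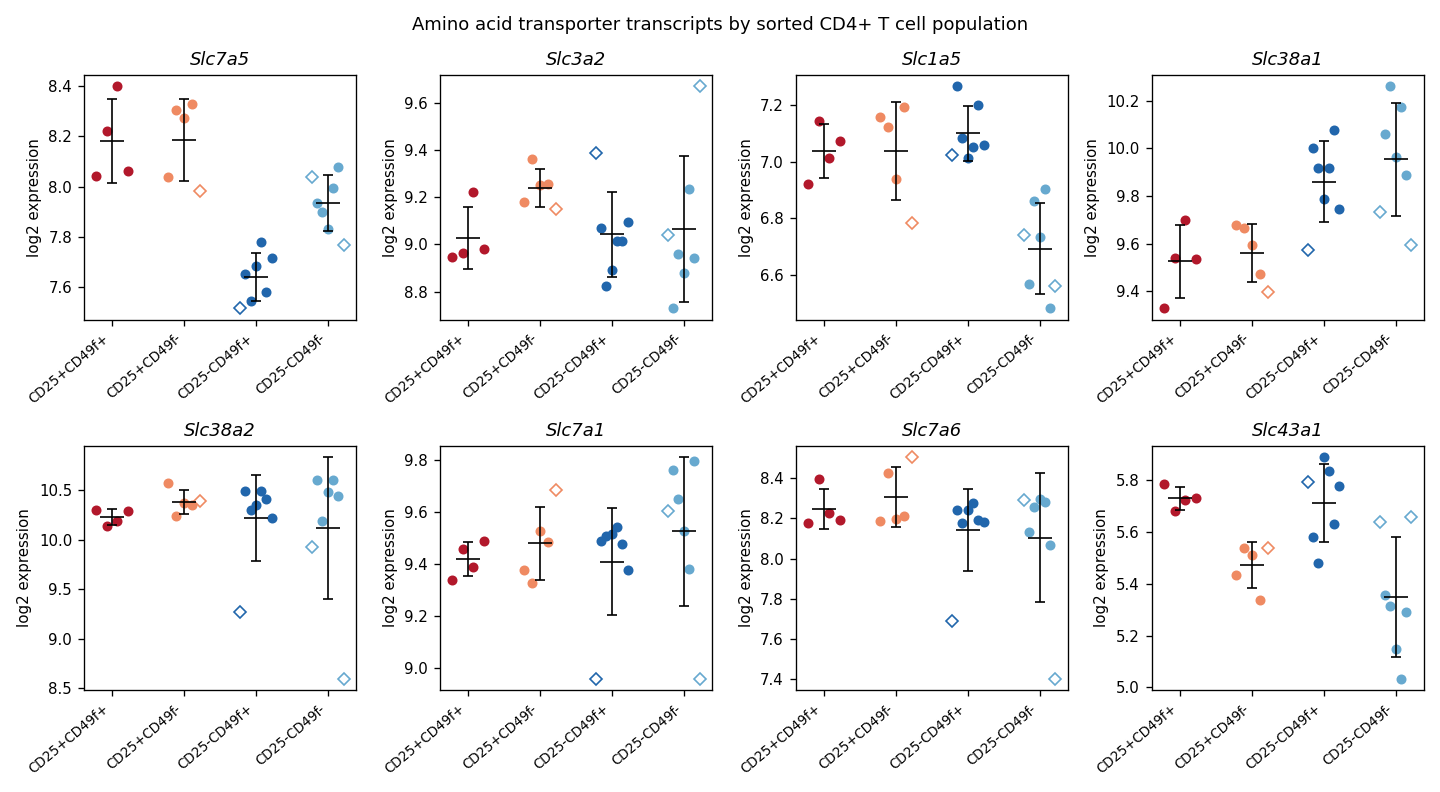
Log2 expression of the 8 transporter genes on every array, with CD25+CD49f+ cells on the left, then CD25+CD49f-, CD25-CD49f+ and CD25-CD49f- cells. Points are arrays, open diamonds the 4 arrays with low correlation to their group, and black bars the mean ± SD. Slc7a5 is lowest in CD25-CD49f+ cells, where no array is above 7.78, and Slc1a5 is lowest in CD25-CD49f- cells.

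Slc7a5, the catalytic chain of the large neutral amino acid exchanger, had the widest spread of group means among the 8 genes, 0.55 log2 units, and 12.9% of all genes had a wider one. It measured 8.04, 8.22, 8.40 and 8.06 in CD25+CD49f+ cells. It measured 8.04, 8.30, 8.27, 8.33 and 7.98 in CD25+CD49f- cells. The arrays of CD25-CD49f+ cells ran from 7.52 through a median of 7.65 to 7.78, and those of CD25-CD49f- cells from 7.77 through a median of 7.93 to 8.08. Every array of the CD25+ groups was above every array of CD25-CD49f+ cells, while both CD25+ groups overlapped CD25-CD49f- cells.

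Slc7a5 was 1.46-fold higher in CD25+CD49f+ compared with CD25-CD49f+ cells (0.54 ± 0.09 log2 units, SE, adjusted p = 1.66e-04). It was also 1.46-fold higher in CD25+CD49f- compared with CD25-CD49f+ cells (0.55 ± 0.08, adjusted p = 3.80e-05). Within CD25- cells Slc7a5 was lower in CD25-CD49f+ compared with CD25-CD49f- cells, by a log2 difference of -0.29 ± 0.08 (adjusted p = 0.00810). The means of CD25+CD49f+ and CD25+CD49f- cells, 8.18 and 8.19, differed by far less than the standard error of 0.10. The 4 arrays with low correlation changed none of these calls when left out. Within the arrays without Y-linked transcripts the differences were 0.53 (adjusted p = 0.0338), 0.57 (0.0159) and -0.34 (0.0581), and within the Y-linked arrays without Xist 0.54 (0.134), 0.61 (0.0613) and -0.23 (0.384), each with fewer arrays.

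The position of CD25-CD49f- cells for Slc7a5 was less certain. Slc7a5 was 1.19-fold higher in CD25+CD49f- compared with CD25-CD49f- cells (0.25 ± 0.08, adjusted p = 0.0430). CD25+CD49f+ cells had nearly the same log2 difference from CD25-CD49f- cells, 0.25 ± 0.09, which was not called (adjusted p = 0.0723) but was at 0.23 without the 4 arrays of low correlation (adjusted p = 0.0476). The call for CD25+CD49f- cells was lost in 20 of 40 alternatives, among them 11 that each left out 1 array. Without CD25+CD49f+ replicate 2 the adjusted p was 0.0513. Without CD25+CD49f- replicates 2, 3 and 4 it was 0.124, 0.115 and 0.132. Without CD25-CD49f+ replicates 2, 4 and 7 it was 0.0514, 0.0519 and 0.0505, and without CD25-CD49f- replicates 2, 3, 4 and 7 it was 0.0631, 0.0707, 0.0804 and 0.0767. The log2 difference was 0.23 (adjusted p = 0.402) within arrays without Y-linked transcripts and 0.38 (adjusted p = 0.211) within Y-linked arrays without Xist. Between the CD49f differences within CD25+ and within CD25- cells, Slc7a5 had an interaction of 0.29 ± 0.12, which was not called (adjusted p = 0.242).

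The 3 genes whose values ran closest to Slc7a5 over the 23 arrays were Bphl, a serine hydrolase, Fbl, the ribosomal RNA methyltransferase fibrillarin, and Zfp667, a zinc finger protein. Their root mean square differences from Slc7a5, each gene taken as deviation from its own mean, were 0.136, 0.141 and 0.147, beside a standard deviation of 0.26 of Slc7a5 itself. Fbl averaged 11.07 in CD25+CD49f+ cells, 11.08 in CD25+CD49f- cells, 10.72 in CD25-CD49f+ cells, against 10.85 in CD25-CD49f- cells. No other transporter reached the 0.5 log2 units between group means that were asked for this search.

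Slc3a2, the heavy chain that brings Slc7a5 and Slc7a6 to the cell surface, did not share the order of groups seen for Slc7a5. It measured 8.95, 8.96, 9.22 and 8.98 in CD25+CD49f+ cells and 9.18, 9.36, 9.25, 9.26 and 9.15 in CD25+CD49f- cells. Its arrays ran from 8.82 through a median of 9.02 to 9.39 in CD25-CD49f+ cells, and from 8.73 through 8.96 to 9.67 in CD25-CD49f- cells. All groups overlapped, and the highest CD25-CD49f+ and CD25-CD49f- arrays, replicates 1 and 7, are among those of low correlation. Slc3a2 differed by 0.17 ± 0.12 between CD25+CD49f- cells and CD25-CD49f- cells (adjusted p = 0.438) and by 0.20 ± 0.12 between CD25+CD49f- cells and CD25-CD49f+ cells (adjusted p = 0.466). Without the 4 arrays of low correlation these log2 differences were 0.31 (adjusted p = 0.0135) and 0.28 (adjusted p = 0.0304), and without CD25-CD49f- replicate 7 alone the first was 0.28 (adjusted p = 0.0495). Slc3a2 differed by -0.21 ± 0.14 between CD25+CD49f+ cells and CD25+CD49f- cells (adjusted p = 0.900).

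Slc1a5, a sodium-dependent glutamine and small neutral amino acid exchanger, was lowest in CD25-CD49f- cells. It measured 6.92, 7.14, 7.01 and 7.07 in CD25+CD49f+ cells and 7.16, 7.12, 6.94, 7.19 and 6.78 in CD25+CD49f- cells. Slc1a5 ran from 7.01 through a median of 7.06 to 7.27 in CD25-CD49f+ cells and from 6.48 through 6.73 to 6.90 in CD25-CD49f- cells. The mean of CD25-CD49f- cells, 6.69, was close above the background limit of 6.50, and their replicate 6, at 6.48, was below it. The differences from CD25-CD49f- cells are thus measured from a level near background. The CD25+CD49f+ and CD25-CD49f+ arrays were all above the CD25-CD49f- arrays, and CD25+CD49f- replicate 5, one of the arrays of low correlation, made the only overlap.

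Slc1a5 was 1.33-fold higher in CD25-CD49f+ compared with CD25-CD49f- cells (0.41 ± 0.08, adjusted p = 4.98e-04). It was 1.27-fold higher in CD25+CD49f- compared with CD25-CD49f- cells (0.35 ± 0.09, adjusted p = 0.00579) and 1.27-fold higher in CD25+CD49f+ compared with CD25-CD49f- cells (0.35 ± 0.09, adjusted p = 0.0107). The last call was lost without CD25+CD49f+ replicate 2, at 0.31 (adjusted p = 0.0555). Among the 3 higher groups Slc1a5 differed by at most 0.06 between means. Within arrays without Y-linked transcripts the log2 differences were 0.29 (adjusted p = 0.116), 0.33 (0.158) and 0.22 (0.417), and within Y-linked arrays without Xist 0.57 (0.00949), 0.53 (0.0267) and 0.51 (0.0287).

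Between CD25+CD49f+ cells and CD25+CD49f- cells Slc1a5 did not differ in mean, at 7.04 in each. The interaction for Slc1a5 was -0.41 ± 0.13 and was not called (adjusted p = 0.0629). It was called without CD25+CD49f- replicate 5 (-0.47, adjusted p = 0.0170), without CD25-CD49f- replicate 3 (-0.44, adjusted p = 0.0478), without CD25-CD49f- replicate 5 (-0.44, adjusted p = 0.0335) and without the 4 arrays of low correlation (-0.47, adjusted p = 0.0129).

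Slc38a1, a sodium-coupled glutamine carrier, was lower in both CD25+ groups than in CD25-CD49f- cells by its brighter probe set (1454764_s_at), whose values follow, and not by its second one (1415903_at). It measured 9.33, 9.54, 9.70 and 9.54 in CD25+CD49f+ cells and 9.68, 9.66, 9.59, 9.47 and 9.40 in CD25+CD49f- cells. Slc38a1 ran from 9.57 through a median of 9.92 to 10.08 in CD25-CD49f+ cells and from 9.59 through 9.96 to 10.26 in CD25-CD49f- cells. The groups overlapped through the lowest arrays of the CD25- groups, CD25-CD49f+ replicate 1 and CD25-CD49f- replicate 7, both of low correlation.

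Slc38a1 was lower in CD25+CD49f+ compared with CD25-CD49f- cells (-0.43 ± 0.11, adjusted p = 0.0109) and lower in CD25+CD49f- compared with CD25-CD49f- cells (-0.39 ± 0.11, adjusted p = 0.0120). The second probe set gave -0.07 ± 0.13 (adjusted p = 0.883) and -0.07 ± 0.12 (adjusted p = 0.844) in these comparisons. With the mean of both probe sets the differences were -0.25 (adjusted p = 0.0784) and -0.23 (adjusted p = 0.0741), neither of them called. Without CD25+CD49f+ replicate 1 the first difference was -0.36 and no longer called (adjusted p = 0.0660). Against CD25-CD49f+ cells Slc38a1 differed by -0.33 ± 0.11 in CD25+CD49f+ cells (adjusted p = 0.103) and by -0.30 ± 0.11 in CD25+CD49f- cells (adjusted p = 0.0912), neither of which was called. Both passed without CD25-CD49f+ replicate 1 (-0.38, adjusted p = 0.0427, and -0.35, adjusted p = 0.0387). They also passed without CD25-CD49f- replicate 7 (-0.33, adjusted p = 0.0496, and -0.30, adjusted p = 0.0458) and without all 4 arrays of low correlation (-0.38, adjusted p = 0.0032, and -0.30, adjusted p = 0.0172).

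Within arrays without Y-linked transcripts the differences of Slc38a1 from CD25-CD49f- cells were -0.60 in CD25+CD49f+ cells (adjusted p = 0.0350) and -0.36 in CD25+CD49f- cells (adjusted p = 0.279). Within Y-linked arrays without Xist they were -0.23 (adjusted p = 0.548) and -0.31 (adjusted p = 0.388). CD25-CD49f+ and CD25-CD49f- cells differed in Slc38a1 by -0.09 ± 0.10 (adjusted p = 0.656).

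Slc38a2, a sodium-coupled carrier of small neutral amino acids, was not called in any comparison. It measured 10.30, 10.13, 10.18 and 10.29 in CD25+CD49f+ cells and 10.57, 10.24, 10.36, 10.35 and 10.39 in CD25+CD49f- cells. Slc38a2 ran from 9.27 through a median of 10.35 to 10.49 in CD25-CD49f+ cells and from 8.59 through 10.44 to 10.61 in CD25-CD49f- cells. The 2 lowest values came from arrays of low correlation, and the medians of the 4 groups lay between 10.23 and 10.44.

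Slc43a1, the carrier that needs no partner chain, gave low values throughout, between 5.03 and 5.89, where a transcript can read without being present. It measured 5.79, 5.68, 5.72 and 5.73 in CD25+CD49f+ cells and 5.44, 5.54, 5.51, 5.34 and 5.54 in CD25+CD49f- cells. Slc43a1 ran from 5.48 through a median of 5.78 to 5.89 in CD25-CD49f+ cells and from 5.03 through 5.32 to 5.66 in CD25-CD49f- cells. All CD25+CD49f+ arrays were above all arrays of both CD49f- groups.

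The log2 difference of Slc43a1 was 0.38 ± 0.10 between CD25+CD49f+ cells and CD25-CD49f- cells (adjusted p = 0.0123) and 0.36 ± 0.09 between CD25-CD49f+ cells and CD25-CD49f- cells (adjusted p = 0.00515). Since all values lay below 6.50, these differences are given with no fold and cannot be told apart from differences in background. CD25+CD49f+ and CD25+CD49f- cells differed in Slc43a1 by 0.26 ± 0.11, which was not called (adjusted p = 0.549). CD25+CD49f- and CD25-CD49f+ cells differed by -0.24 ± 0.10 (adjusted p = 0.159). The differences that passed the test were 0.45 (adjusted p = 0.151) and 0.40 (0.106) within arrays without Y-linked transcripts, and 0.29 (0.322) and 0.31 (0.218) within Y-linked arrays without Xist.

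The promoter of Slc43a1 is shown because it was the sole one among the called transporters for which RefSeq's promoter table (mouse, GRCm38.p6) had an entry. The table had 7 promoters of 5 of the 8 genes. The 250 bases before the start of Slc43a1, chr2:84840073-84840322 on the plus strand, hold 1 E-box (CACGTG, in capitals), the motif bound by Myc and related factors, whose first base lies 64 bases before the start:
Slc43a1: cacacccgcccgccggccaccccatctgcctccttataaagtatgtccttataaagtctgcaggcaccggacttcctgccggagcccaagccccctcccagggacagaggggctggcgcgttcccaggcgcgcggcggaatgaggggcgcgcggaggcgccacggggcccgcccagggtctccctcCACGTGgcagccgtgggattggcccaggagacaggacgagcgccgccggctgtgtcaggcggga
The E-box, which reads the same on both strands, occurred in 1 of the 7 promoters and in 7.15% of 32851 mouse promoters. The amino acid response motif TGATGNAA, searched on both strands, occurred in 0 of the 7 and in 3.97% of all promoters. Both motifs were searched in each whole promoter entry, without the cut to the 250 bases shown. A match is only a description of these letters.

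Slc7a1, which carries arginine and lysine, and Slc7a6, the exchanger of cationic and neutral amino acids, were not called in any comparison. Slc7a1 measured 9.34, 9.46, 9.39 and 9.49 in CD25+CD49f+ cells and 9.38, 9.33, 9.53, 9.48 and 9.68 in CD25+CD49f- cells. Its arrays ran from 8.96 through a median of 9.49 to 9.54 in CD25-CD49f+ cells and from 8.96 through 9.60 to 9.80 in CD25-CD49f- cells. The group means of Slc7a1 spanned 0.12 log2 units, and 79.3% of all genes spanned more.

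Slc7a6 measured 8.18, 8.40, 8.23 and 8.19 in CD25+CD49f+ cells and 8.19, 8.43, 8.20, 8.21 and 8.51 in CD25+CD49f- cells. Its arrays ran from 7.69 through a median of 8.19 to 8.28 in CD25-CD49f+ cells and from 7.40 through 8.26 to 8.30 in CD25-CD49f- cells. As for Slc38a2, the lowest values of Slc7a6 came from CD25-CD49f+ replicate 1 and CD25-CD49f- replicate 7. The difference of Slc7a6 farthest from 0 was that between CD25+CD49f- cells and CD25-CD49f- cells, 0.20 ± 0.13 (adjusted p = 0.396).

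**Figure D2:**
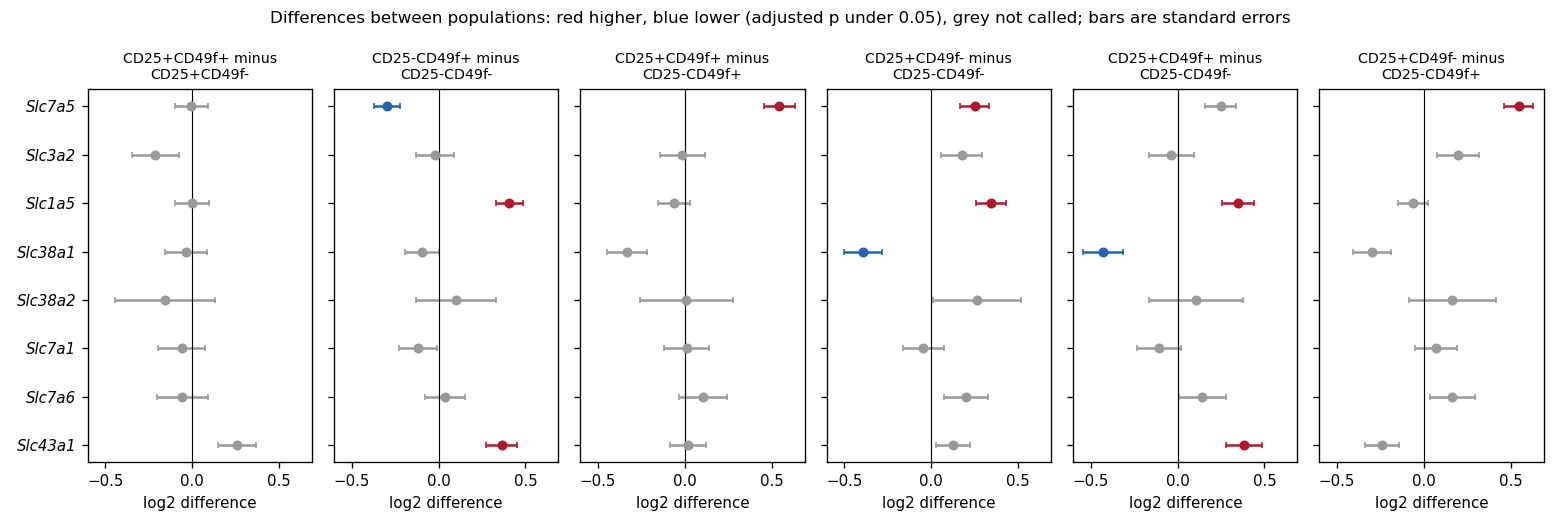
Log2 difference of each transporter gene in the 6 comparisons of groups, with standard errors. Red is called higher, blue is called lower and grey is not called. Slc7a5 is 0.54 and 0.55 higher in the CD25+ groups than in CD25-CD49f+ cells, and no gene is called between the CD25+ groups.

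Groups did not overlap for 1 of 8 transporters between CD25+CD49f+ cells and CD25+CD49f- cells (Slc43a1, at background levels, against 4.67% of all genes) and for 1 of 8 between CD25-CD49f+ cells and CD25-CD49f- cells (Slc1a5, against 5.78%). They did not overlap for Slc7a5 alone of the 8 between CD25+CD49f+ cells and CD25-CD49f+ cells (against 8.22% of all genes) and between CD25+CD49f- cells and CD25-CD49f+ cells (against 7.31%). Between CD25+CD49f+ cells and CD25-CD49f- cells Slc1a5 and Slc43a1 did not overlap (against 10.7%). All 8 overlapped between CD25+CD49f- cells and CD25-CD49f- cells, where 8.1% of all genes did not.

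Probe sets of 1 gene did not always give the same result, with p-values adjusted over all 45101 probe sets. Of the 15 probe sets, 3 were called between CD25-CD49f+ cells and CD25-CD49f- cells, against 9.83% of all probe sets, and 3 between CD25+CD49f+ cells and CD25-CD49f- cells, against 9.28%. For CD25+CD49f- against CD25-CD49f- cells 2 were called, against 9.94%. There the probe set of Slc7a5 (1418326_at) had an adjusted p of 0.0550. In the comparisons of CD25+CD49f+ and CD25+CD49f- cells with CD25-CD49f+ cells 1 was called each, against 3.23% and 5.13%. Between the CD25+ groups and for the interaction 0 were called by limma, against 1.11% and 3.12%.

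The second probe set of Slc1a5 (1440379_at) averaged 6.18 in CD25+CD49f+ cells, 5.97 in CD25+CD49f- cells, 6.08 in CD25-CD49f+ cells, against 5.89 in CD25-CD49f- cells, in the range of absent transcripts. It was not called, with a difference of 0.19 ± 0.12 between CD25-CD49f+ cells and CD25-CD49f- cells (adjusted p = 0.392). This probe set varied more over the arrays, and all calls of Slc1a5 were lost when the probe set with the largest variance was used. With the mean of both probe sets, Slc1a5 lost the call for CD25+CD49f- against CD25-CD49f- cells and kept the others. The second probe set of Slc38a1 (1415903_at) averaged 8.34 in CD25+CD49f+ cells, 8.34 in CD25+CD49f- cells, 8.56 in CD25-CD49f+ cells, against 8.41 in CD25-CD49f- cells, well above that range. The lower Slc38a1 level in the CD25+ groups rests on probe set 1454764_s_at. The second probe set of Slc7a1 (1454992_at) differed by -0.21 ± 0.08 between CD25-CD49f+ cells and CD25-CD49f- cells (adjusted p = 0.113). That of Slc7a6 (1460541_at) differed by 0.31 ± 0.14 between CD25+CD49f+ cells and CD25-CD49f- cells (adjusted p = 0.204), with no overlap. The third probe sets of Slc38a2 (1429594_at, 5.70 to 6.38) and Slc7a1 (1421533_at, 4.02 to 4.71) read as low as absent transcripts.

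**Figure D3:**
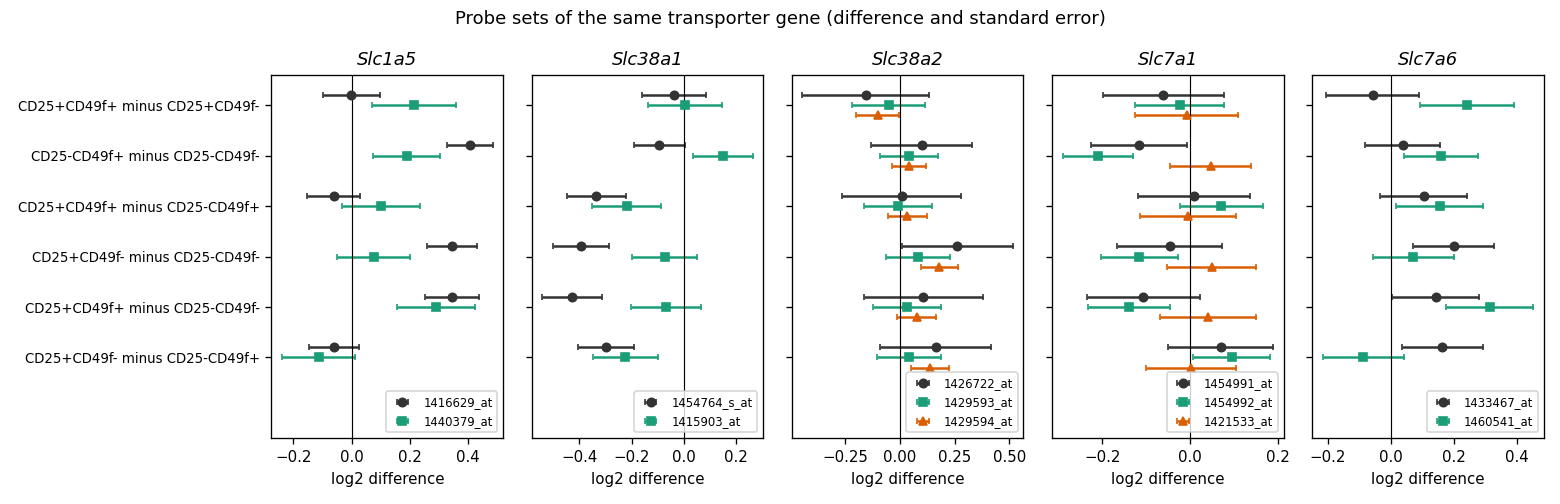
Log2 differences and standard errors of each probe set, for the 5 transporter genes with more than 1, in the 6 comparisons of groups. For Slc38a1 the 2 probe sets differ between CD25+CD49f- cells and CD25-CD49f- cells, at -0.39 and -0.07.

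Of 36 other amino acid transporters measured, few were called. Between CD25+CD49f+ cells and CD25+CD49f- cells 3 were lower, against 1.47% of all genes: Slc15a3, a lysosomal histidine and peptide carrier (-1.77 ± 0.20, adjusted p = 1.61e-06), Slc7a10, a carrier of small neutral amino acids (-0.75 ± 0.15, adjusted p = 0.0033) and Slc6a13, a GABA carrier whose means (4.79 in CD25+CD49f+ cells, against 5.37 in CD25+CD49f- cells) cannot be told apart from background. Slc15a3 averaged 4.93 in CD25+CD49f+ cells, 6.70 in CD25+CD49f- cells, 5.0 in CD25-CD49f+ cells, against 5.22 in CD25-CD49f- cells. Its mean thus left the range of absent transcripts only in CD25+CD49f- cells. Of 14 myeloid and dendritic cell markers, 2 were lower and 0 higher in CD25+CD49f+ compared with CD25+CD49f- cells (against 1.47% and 0.352% of all genes). In CD25+CD49f- compared with CD25-CD49f+ cells 3 of these markers were higher and 1 lower (against 5.23% and 3.63%). The part of such cells in the Slc15a3 values was not tested. Slc7a10 averaged 6.65 in CD25+CD49f+ cells, 7.40 in CD25+CD49f- cells, 6.02 in CD25-CD49f+ cells, against 5.62 in CD25-CD49f- cells. It was higher in CD25+CD49f- compared with CD25-CD49f- cells by 1.78 ± 0.13 (adjusted p = 8.82e-11), against a level in the background range, where 4 of the 36 were higher (against 9.34% of all genes) and 1 lower (against 4.68%). For CD25-CD49f+ against CD25-CD49f- cells 2 of the 36 were higher (against 8.01% of all genes) and 0 lower (5.42%), and for CD25+CD49f+ against CD25-CD49f+ cells 1 was higher (2.81%) and 1 lower (2.91%). For CD25+CD49f+ against CD25-CD49f- cells 3 were higher (7.63%) and 1 lower (5.53%), and for CD25+CD49f- against CD25-CD49f+ cells 4 were higher (5.23%) and 0 lower (3.63%).

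Among genes of the amino acid response, which the transcription factor Atf4 drives when amino acids run short, more were called higher than lower in each group set against CD25-CD49f- cells. Of 26 measured, 9 were higher and 1 lower in CD25+CD49f+ compared with CD25-CD49f- cells (against 7.63% and 5.53% of all genes). Against the same CD25-CD49f- cells, 12 were higher and 1 lower for CD25+CD49f- cells (against 9.34% and 4.68%), and 8 were higher and 0 lower for CD25-CD49f+ cells (against 8.01% and 5.42%). Asns, asparagine synthetase, was higher than in CD25-CD49f- cells by 0.97 ± 0.10 in CD25+CD49f+ cells (adjusted p = 9.50e-08), by 0.57 ± 0.10 in CD25+CD49f- cells (adjusted p = 8.18e-05) and by 0.51 ± 0.09 in CD25-CD49f+ cells (adjusted p = 1.10e-04), against a mean of 6.35 that lay in the background range. Ppp1r15a, the phosphatase subunit that restarts translation, was higher than in CD25-CD49f- cells by 2.20 ± 0.36 in CD25+CD49f+ cells (adjusted p = 5.33e-05), by 2.18 ± 0.33 in CD25+CD49f- cells (adjusted p = 2.31e-05) and by 2.0 ± 0.30 in CD25-CD49f+ cells (adjusted p = 2.39e-05). Ppp1r15a is also induced by stress of cell handling, whose part was not tested.

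Between CD25+CD49f+ cells and CD25-CD49f+ cells 4 of the 26 were higher and 0 lower (against 2.81% and 2.91% of all genes), among them Shmt2, the mitochondrial serine hydroxymethyltransferase (0.41 ± 0.09, adjusted p = 0.0047). Of the 26, 5 were higher and 0 lower in CD25+CD49f- compared with CD25-CD49f+ cells (against 5.23% and 3.63%), with Shmt2 at 0.57 ± 0.09 (adjusted p = 3.21e-05). Without the 4 arrays of low correlation these counts were 5 and 3, where 14.3% of all genes were called. Between CD25+CD49f+ cells and CD25+CD49f- cells 0 were higher, against 0.352% of all genes, and Nupr1, a stress-induced chromatin protein, was called lower, at means (4.85 in CD25+CD49f+ cells, against 5.56 in CD25+CD49f- cells) that cannot be told apart from background. The interaction was below 0 for 4 of the 26, against 4.33% of all genes, and above 0 for 0, against 0.984%.

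Of 34 measured genes of mTORC1 and its amino acid sensing arm, Rragd, a GTPase that docks mTORC1 on lysosomes, followed CD25. It averaged 7.65 and 7.34 in CD25+CD49f+ and CD25+CD49f- cells, against 5.12 and 4.93 in CD25-CD49f+ and CD25-CD49f- cells. Rragd was higher by 2.53 ± 0.21 in CD25+CD49f+ compared with CD25-CD49f+ cells (adjusted p = 4.91e-09) and by 2.42 ± 0.19 in CD25+CD49f- compared with CD25-CD49f- cells (adjusted p = 5.38e-10). The levels in the CD25- groups lay in the background range. The whole list had 1 higher (against 2.81% of all genes) and 1 lower (against 2.91%) in the first of these comparisons, which became 5 and 2 without the 4 arrays of low correlation, where 13% of all genes were called. In the second it had 6 higher (against 9.34%) and 0 lower (against 4.68%), or 8 and 2 without the 4 arrays, where 19.7% of all genes were called. In CD25-CD49f+ compared with CD25-CD49f- cells 2 were higher (against 8.01%) and 4 lower (against 5.42%). Without the 4 arrays these became 3 and 7, where 19.1% of all genes were called. Among the 4 lower ones was Mtor, the kinase itself (-0.24 ± 0.07, adjusted p = 0.0129). Deptor, an mTOR inhibitor, was lower in CD25+CD49f+ compared with CD25+CD49f- cells (-0.73 ± 0.17, adjusted p = 0.0176), with a mean of 6.12 in CD25+CD49f+ cells that lay in the background range.

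Enzymes that use glutamine, branched-chain amino acids, arginine and polyamines (25 measured) included Bcat1, the cytosolic branched-chain aminotransferase. Bcat1 averaged 7.57 in CD25+CD49f+ cells, 7.27 in CD25+CD49f- cells, 6.25 in CD25-CD49f+ cells, against 5.10 in CD25-CD49f- cells. It was higher in CD25+CD49f+ compared with CD25-CD49f+ cells by 1.32 ± 0.13 (adjusted p = 1.81e-07), and its levels in both CD25- groups lay in the background range. Odc1, ornithine decarboxylase, was higher in CD25+CD49f- compared with CD25-CD49f- cells by 2.07 ± 0.27 (adjusted p = 1.75e-06). Against CD25-CD49f- cells the list had 5 higher and 0 lower for CD25+CD49f+ cells (against 7.63% and 5.53% of all genes). It had 5 higher and 0 lower for CD25+CD49f- cells (against 9.34% and 4.68%), or 9 and 0 without the 4 arrays of low correlation, where 19.7% of all genes were called. For CD25-CD49f+ cells it had 6 higher and 1 lower (against 8.01% and 5.42%). Against CD25-CD49f+ cells 2 were higher for CD25+CD49f+ cells (against 2.81%) and 4 for CD25+CD49f- cells (against 5.23%), with 0 lower in either. Without the 4 arrays these became 6 higher and 2 lower, and 8 higher and 1 lower, where 13% and 14.3% of all genes were called. Between the CD25+ groups 0 were called by limma.

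In the Myc network (13 measured) 3 were higher and 0 lower in CD25+CD49f+ compared with CD25-CD49f+ cells (against 2.81% and 2.91% of all genes). They were Myc itself (0.73 ± 0.19, adjusted p = 0.0152), Mxd1 (0.74 ± 0.13, adjusted p = 3.56e-04) and Mxd4 (0.56 ± 0.15, adjusted p = 0.0255). Mxd1 and Mxd4 are other partners of Max, and the activity of Myc was not tested. The network had 3 higher and 1 lower for CD25+CD49f+ against CD25-CD49f- cells (7.63% and 5.53%) and for CD25+CD49f- against CD25-CD49f- cells (9.34% and 4.68%). It had 2 higher and 1 lower for CD25+CD49f- against CD25-CD49f+ cells (5.23% and 3.63%), and 2 higher and 2 lower for CD25-CD49f+ against CD25-CD49f- cells (8.01% and 5.42%).

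Of 19 cytosolic aminoacyl-tRNA synthetases, which charge tRNAs with amino acids, 2 were higher in CD25+CD49f- compared with CD25-CD49f- cells (against 9.34% of all genes), 2 in CD25-CD49f+ compared with CD25-CD49f- cells (8.01%) and 1 in CD25+CD49f+ compared with CD25-CD49f- cells (7.63%). These counts are near those over all genes. Hars, the histidine enzyme, was higher in each of these comparisons, by 0.84 ± 0.22 (adjusted p = 0.00987), 0.61 ± 0.20 (adjusted p = 0.0460) and 0.73 ± 0.24 (adjusted p = 0.0429). No synthetase was lower in these comparisons.

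Cell cycle genes (35 measured) had another order of groups than Slc7a5. The mean of the list was 8.01 in CD25+CD49f+ cells, 7.50 in CD25+CD49f- cells, 8.60 in CD25-CD49f+ cells, against 6.94 in CD25-CD49f- cells. Of the 35, 32 were higher in CD25-CD49f+ compared with CD25-CD49f- cells (against 8.01% of all genes), while Slc7a5 was lower and Slc1a5 higher. Cdk1, the mitotic kinase, was higher there by 2.54 ± 0.12 (adjusted p = 8.76e-14), against a level of 5.94 in the background range. In CD25+CD49f+ compared with CD25-CD49f+ cells 17 were lower and 0 higher (against 2.91% and 2.81%), while Slc7a5 was higher.

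Many of the myeloid and dendritic cell markers were called lower in the 3 groups set against CD25-CD49f- cells. Slc1a5 was higher in the same 3 comparisons, and Slc38a1 was lower in those of the CD25+ groups. Of 14 markers, 9 were lower and 0 higher in CD25+CD49f+ cells (against 5.53% and 7.63% of all genes), 6 were lower and 1 higher in CD25+CD49f- cells (against 4.68% and 9.34%), and 7 were lower and 0 higher in CD25-CD49f+ cells (against 5.42% and 8.01%). Itgax, a dendritic cell marker chosen for mention after its values were seen, averaged 6.22 in CD25+CD49f+ cells, 6.16 in CD25+CD49f- cells, 6.66 in CD25-CD49f+ cells, against 8.58 in CD25-CD49f- cells. Regulatory T cell markers (6 measured, Il2ra of the CD25 gate among them) were all called higher in the same 3 comparisons (against 7.63%, 9.34% and 8.01%). They averaged 10.70 in CD25+CD49f+ cells, 10.42 in CD25+CD49f- cells, 9.37 in CD25-CD49f+ cells, against 7.01 in CD25-CD49f- cells. The part of regulatory T cells in the transporter values was not tested.

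Neutrophil markers (6 measured) had lower means in the CD25+ groups, where Slc7a5 was above CD25-CD49f+ cells and Slc38a1 below CD25-CD49f- cells. The mean of these markers was 7.58 in CD25+CD49f+ cells (arrays from 7.09 to 7.91), 7.52 in CD25+CD49f- cells (7.17 to 7.96), 8.39 in CD25-CD49f+ cells (7.99 to 8.62), against 8.18 in CD25-CD49f- cells (7.45 to 8.48). Against CD25-CD49f+ cells 2 of the 6 were called lower for CD25+CD49f+ cells (against 2.91% of all genes) and 3 for CD25+CD49f- cells (3.63%). Without the 4 arrays of low correlation these became 5 and 6, where 13% and 14.3% of all genes were called in either direction. Against CD25-CD49f- cells the counts were 1 (5.53%) and 2 (4.68%), which became 5 and 6, where 21.7% and 19.7% of all genes were called in either direction. NK cell markers (5 measured) averaged 6.46 in CD25+CD49f+ cells (arrays from 6.30 to 6.57), 6.61 in CD25+CD49f- cells (6.40 to 6.80), 6.93 in CD25-CD49f+ cells (6.83 to 7.05), against 7.30 in CD25-CD49f- cells (7.09 to 7.46). Against CD25-CD49f- cells 2 of the 5 were called lower and 1 higher for CD25+CD49f+ cells (against 5.53% and 7.63% of all genes). The counts were 2 lower and 2 higher for CD25+CD49f- cells (4.68% and 9.34%), and 2 lower and 1 higher for CD25-CD49f+ cells (5.42% and 8.01%). The part of these cells in the transporter values was not tested, and in sorted bulk samples fewer cells of a type and less RNA per cell cannot be told apart.

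**Figure D4:**
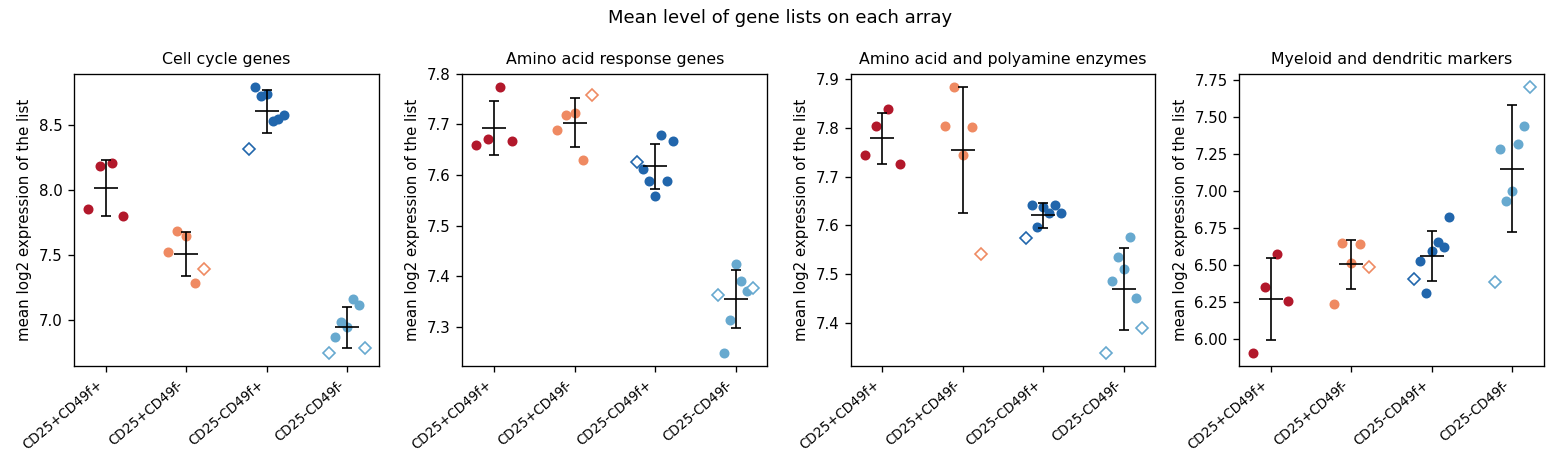
Mean log2 level of 4 gene lists on every array, with CD25+CD49f+ cells on the left and CD25-CD49f- cells on the right. Points are arrays, open diamonds the 4 arrays of low correlation, and black bars the mean ± SD. The cell cycle list is highest in CD25-CD49f+ cells (mean 8.60), and the amino acid response list is lowest in CD25-CD49f- cells (mean 7.36).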

How the data were processed

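The deposited values were log2 expression levels per probe set, made by the authors with RMA per the submitters' processing notes (version not given in the sources used here). They were used without rescaling. Probe sets were named through the array annotation: 34958 named 1 gene, 932 several and 9211 none, and 34754 were matched to current symbols by Entrez identifier. Groups follow the sample titles. Group differences came from limma 3.58.1 (R 4.3.3; lmFit with the 4 group means in 1 fit over all 23 arrays, contrasts, eBayes, Benjamini-Hochberg adjustment over 18194 genes), and again over all 45101 probe sets. The fit was tested on simulated data. Figures used Python 3.11.15 and matplotlib 3.10.9.

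All 8 transporters are named. From each list, up to 4 called genes with the smallest p in a comparison could be named. The transporters, lists and alternatives were chosen with earlier results of these data known. The number of arrays limits the precision: the median standard error of the 8 transporters was 0.13 between the CD25+ groups and 0.10 between the CD25- groups. Y-linked transcripts were called present above 6 log2 units and Xist above 8, and an array had low correlation below a median of 0.985. Leaving out the 4 arrays of low correlation was an alternative chosen after seeing the data. Alternatives included each array left out, a replicate block, array weights, other scalings and other ways of joining probe sets.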

Additional observations from a re-analysis of the deposited data

Results flagged for a closer look

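On single arrays, 7 values of the transporter probe sets lay far from the rest of their group, by Dixon's gap test, among 60 groups of values tested. Chance alone gives about 1 in 20. CD25-CD49f+ replicate 1 was low for Slc38a2 (9.27, nearest 10.22), for both brighter probe sets of Slc7a1 (8.96, nearest 9.38, and 8.68, nearest 8.99) and for Slc7a6 (7.69, nearest 8.18). CD25-CD49f- replicate 7 was low for Slc38a2 (8.59, nearest 9.92) and Slc7a6 (7.40, nearest 8.07). Both arrays are among the 4 of low correlation. Slc3a2 was high on CD25+CD49f+ replicate 3 (9.22, nearest 8.98), which is not among them.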

How the results depend on the processing

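Over 23 arrays left out in turn and 17 other alternatives, 2225 differences of single transporters were recomputed: 2034 kept direction and side of the threshold, 48 lost the call, 32 gained it, 111 changed sign while called in neither fit, and 0 changed sign where either fit called them. Where a count of called transporters changed and no cause is stated, the cause was not tested.

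Leaving out single arrays gave between 2 and 3 called transporters for CD25+CD49f- against CD25-CD49f- cells and for CD25+CD49f+ against CD25-CD49f- cells, and 1 to 2 for either CD25+ group against CD25-CD49f+ cells. It gave 3 throughout for CD25-CD49f+ against CD25-CD49f- cells, 0 throughout between the CD25+ groups, and 0 to 1 for the interaction. Over probe sets the same gave 3, 0 and 0 to 1 for these last, 1 to 3 for either CD25+ group against CD25-CD49f- cells and 1 throughout against CD25-CD49f+ cells.

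For CD25+CD49f- against CD25-CD49f+ cells the count of 1 became 2 with a fixed replicate block, 4 with array weights, 2 with quantile scaling and 3 with cyclic loess. It was 3 without the 4 arrays of low correlation (against 14.3% of all genes) and 0 within Y-linked arrays without Xist. For CD25+CD49f+ against CD25-CD49f+ cells the count of 1 became 2 with array weights, quantile scaling, cyclic loess or the compared groups alone. It was 2 without the 4 arrays (against 13% of all genes) and 0 within Y-linked arrays without Xist. The interaction count of 0 became 1 (Slc1a5) with array weights, quantile scaling, cyclic loess, brighter genes only, and Y-linked transcripts or the Actb difference as a covariate. It was also 1 without the 4 arrays, against 9.4% of all genes. For CD25+CD49f- against CD25-CD49f- cells the count of 3 became 1 with the mean of the probe sets, 1 at an adjusted p under 0.01, 0 within arrays without Y-linked transcripts and 1 within Y-linked arrays without Xist. For CD25+CD49f+ against CD25-CD49f- cells the count of 3 became 0 at an adjusted p under 0.01 and 1 within either set of arrays. Without the 4 arrays, CD25+CD49f- and CD25+CD49f+ cells each had 3 higher and 1 lower against CD25-CD49f- cells. Slc3a2 was gained for CD25+CD49f- cells alone and Slc7a5 for CD25+CD49f+ cells alone. The shares of all genes called there were 19.7% and 21.7%. For CD25-CD49f+ against CD25-CD49f- cells the count of 3 became 0 within arrays without Y-linked transcripts and 1 within Y-linked arrays without Xist. Both sets hold fewer arrays. Over all 18194 genes, quantile scaling and cyclic loess called 1690 and 1735 for CD25+CD49f- against CD25-CD49f+ cells, where the main fit called 1612. For CD25+CD49f+ against CD25-CD49f+ cells they called 1077 and 1107, beside 1040, and for the interaction 1024 and 1074, beside 966. For the remaining alternatives no share of all genes is given, so a general change in calls is not separated from one of the transporters.

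Whether same replicate numbers marked paired samples was not settled. Of 29 same-number pairs, 12 had deviations correlated above 0.1 (from -0.45 to 0.52, median 0.06), with no pairs of different numbers set beside them. The main fit took all arrays as unpaired. With the fixed replicate block the calls of Slc1a5 for CD25+CD49f+ against CD25-CD49f- cells (0.30, adjusted p = 0.0805) and of Slc7a5 for CD25+CD49f- against CD25-CD49f- cells (0.25, adjusted p = 0.104) were lost, and that of Slc38a1 for CD25+CD49f- against CD25-CD49f+ cells (-0.33, adjusted p = 0.0433) was gained. Slc7a5 for CD25+CD49f- against CD25-CD49f- cells also lost its call with trended and robust eBayes (adjusted p = 0.0614), quantile scaling (0.0892), median centring (0.0581), the compared groups alone (0.121) and Y-linked transcripts as a covariate (0.0578). Slc43a1 for CD25+CD49f+ against CD25-CD49f- cells lost its call with the compared groups alone (0.38, adjusted p = 0.0605). Levels below 6.50, where Slc43a1 and the dimmer probe sets of Slc1a5, Slc38a2 and Slc7a1 lie, cannot be told apart from background.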
